A study of Mus musculus with 6 samples.

Results

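Cilium and flagellum genes were examined in cultured mouse astrocytes in which the microRNA miR-29 had been raised. The members were chosen by name: a mouse symbol that starts with Cfap, Dnah, Dnai, Rsph, Tekt, Bbs or Ift followed by a digit. On the array 103 probes of 65 genes met that rule, and 74 probes of 51 genes were kept because 1 group or both had the scanner software's flag for a signal well above background on each of its 3 arrays. These 51 genes are set against 19740 genes and transcripts kept by the same detection rule. Dnai symbols matched 0 probes, so 6 of the 7 symbol families are represented. The annotation used names those genes Dnaic, and Dnaic1, an outer-arm intermediate chain gene outside the rule, had -0.37 on the log2 scale (adjusted p = 0.0778 in limma) and was called lower with spike-in scaling (-0.62, adjusted p = 0.0220).

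The cells were primary astrocytes of strain C57BL/6 from fetal cerebral cortex (embryonic day 18), a purchased culture transfected 3 weeks after plating and harvested 48 h later. The miR-29 group (3 arrays) had received precursors of the 3 miR-29 family members (a, b and c) together at 80 nM, and the control group (3 arrays) a negative control precursor at the same dose with the same transfection reagent. The labels call the arrays replicate RNA extractions and nowhere describe separate cultures, so the spread behind each p-value is that between extracts and may be technical. One-colour Agilent whole-genome arrays were used, and each value below is a spot's processed signal as a percentage of the 75th percentile of its array.

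A cilium is built on an axoneme, a ring of microtubule doublets that grows from a basal body. Intraflagellar transport (IFT) trains, made of the IFT-A and IFT-B complexes, carry parts up and down it, and the BBSome, named after Bardet-Biedl syndrome, moves membrane proteins in and out. These transport parts serve the single, immotile primary cilium of astrocytes and other cells as well as motile cilia. Dynein arms, radial spokes, tektins and many of the cilium and flagellum associated proteins (Cfap) belong to motile axonemes, which in the brain are the mark of ependymal cells. The symbol rule therefore takes in both an axoneme set (Cfap, Dnah, Rsph and Tekt, 29 genes kept of 43) and a transport set (Ift and Bbs, 22 kept of 22).

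The agent of the experiment is a family of 3 mature microRNAs that share 1 seed, the bases that pair with a target. They are shown because every comparison below is between cells given them and cells not given them. The mouse sequences from RefSeq (GRCm38.p6) have the seed, bases 2 to 8, in capitals.
mmu-miR-29a-3p: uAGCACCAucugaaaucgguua
mmu-miR-29b-3p: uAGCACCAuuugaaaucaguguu
mmu-miR-29c-3p: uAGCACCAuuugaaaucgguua
The gene of miR-29a lies at chr6:31062673-31062694 (minus strand) and that of miR-29c at chr1:195037600-195037621 (plus strand), and miR-29b has a copy beside each. No target sites were searched for in the members, since transcript sequences were not used here.

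Promoters of the members were read for the X-box, the site bound by RFX factors, which are known regulators of cilium genes. RefSeq promoter windows (250 bases before to 50 after a transcript start, GRCm38.p6) were matched by symbol for 43 of the 51 genes, in 48 windows. A loose X-box pattern on either strand, GTNNCC and GNNAC with 3 bases between them, was present in 15 of the 48 windows (31.2%), against 778 of the 13974 windows of all genes tested (5.57%). A stricter form, GTTNCC and GGNAAC with 2 bases between them, whose matches are also matches of the loose pattern, was in 3 of 48 (6.25%) against 0.537%, and the same form with 1 base between them in 1 (2.08%) against 0.229%. The longer half-site GTTGCCATG was in 1 window (2.08%) against 0.673%, and a forkhead site, TGTTTAC, in 1 (2.08%) against 2.61%. The loose pattern was in 6 of 28 windows of members called higher below, 2 of 6 of members called lower and 7 of 14 of members not past the test. A match describes letters and not a bound site.

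The 150 bases before the start are shown for 5 members that hold the loose pattern, 4 of them higher after miR-29 (Cfap126, Cfap206, Cfap44 and Tekt1) and 1 lower (Ift22), with the matches in capitals. They lie at chr1:171122895-171123044 (plus strand) for Cfap126, chr4:34730207-34730356 (minus) for Cfap206, chr16:44394649-44394798 (plus) for Cfap44, chr11:72361883-72362032 (minus) for Tekt1 and chr5:136908000-136908149 (plus) for Ift22.
Cfap126: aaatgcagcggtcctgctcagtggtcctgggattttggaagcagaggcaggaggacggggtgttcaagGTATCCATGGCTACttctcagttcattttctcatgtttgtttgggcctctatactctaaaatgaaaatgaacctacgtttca
Cfap206: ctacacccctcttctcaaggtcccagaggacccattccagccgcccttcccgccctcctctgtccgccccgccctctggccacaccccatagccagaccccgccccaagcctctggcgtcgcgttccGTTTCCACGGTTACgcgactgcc
Cfap44: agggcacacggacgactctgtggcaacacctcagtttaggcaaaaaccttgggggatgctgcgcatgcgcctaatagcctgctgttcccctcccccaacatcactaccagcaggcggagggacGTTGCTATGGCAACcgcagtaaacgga
Tekt1: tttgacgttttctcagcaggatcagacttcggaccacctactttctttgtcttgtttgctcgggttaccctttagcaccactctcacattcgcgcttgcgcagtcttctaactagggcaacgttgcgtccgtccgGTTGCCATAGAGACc
Ift22: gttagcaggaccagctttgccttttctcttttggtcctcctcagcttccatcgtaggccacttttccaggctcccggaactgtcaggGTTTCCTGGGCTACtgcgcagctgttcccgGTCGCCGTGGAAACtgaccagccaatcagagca
The match lies within 100 bases of the start in each of the 5, and Ift22 holds 2 matches. The 5 are examples picked without a stated rule. They include no member not past the test, although those held the pattern in 7 of 14 windows, against 6 of 28 for members called higher. They also leave out the members with the stricter form (Bbs7, Cfap20dc and Cfap298).

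Between 62% and 66.8% of all probes were well above background on an array, 0 member spots were saturated or missing, and across genes arrays correlated at 0.994 to 0.998 within a group and 0.975 to 0.985 between groups. Of the control arrays, replicate 1 shared a slide with the whole miR-29 group and the others were on a second slide. Fold changes are log2, miR-29 minus control, from limma across all 19740 genes with Benjamini-Hochberg adjustment, and a gene is called at an adjusted p under 0.05. Over all genes 35.3% were called higher and 22.7% lower (58.1% in all). With the arrays scaled to the 6 spike-in RNA types detected on every array, 15.2% were called higher and 38.5% lower (53.8% in all), and the median of all genes moved by -0.25, to -0.18 with spike-ins, against 0.068 with the percentile. Every member's fold change moves by that same amount, and it decides some calls.

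Members of the axoneme set were mostly higher in miR-29 cells. Those of the transport set were called in both directions, as all genes were. The axoneme set is a choice of symbols, and not every product in it is a structural part of the axoneme. Cfap36, Cfap298 and Cfap300, all called higher, are described below by other roles. Of 34 axoneme genes under other symbols 15 were higher and 4 lower. Of the 51 members 30 were called higher (58.8%, against 35.3% of all genes) and 6 lower (against 22.7%), and 15 were not past the test. The 3 miR-29 arrays all lay above the 3 control arrays for 31 members (39.8% of all genes) and all below them for 6 (26.4%). Among the 29 axoneme genes 20 were higher (69%), 1 lower and 8 not past, with a median log2 fold change of 0.54. Among the 22 transport genes 10 were higher (45.5%), 5 lower and 7 not past, with a median of 0.20. Of all genes 35.3% were higher and 22.7% lower, so the falls in the transport set were near the share of all genes. With spike-in scaling 14 axoneme genes were higher and 3 lower (median 0.29). In the transport set 4 were then higher and 8 lower (median -0.053), where 15.2% of all genes were higher and 38.5% lower. The members were chosen with earlier results of these arrays known and partly by their detection, so these counts are a description. Whether the axoneme and transport sets differ from each other or from other genes was not tested.

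**Figure D1:**
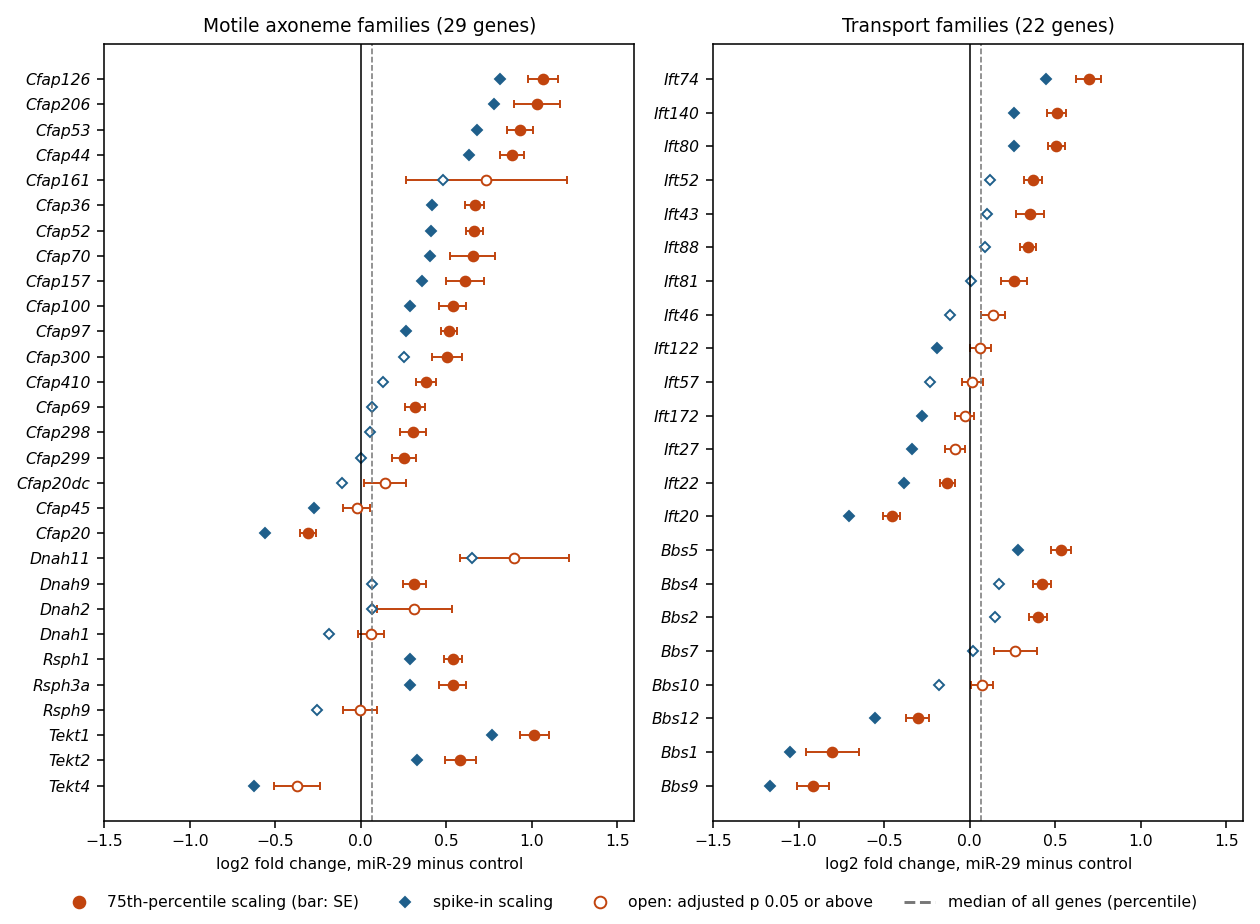
Log2 fold change (miR-29 minus control) of each of the 51 kept members, with 29 axoneme genes on the left and 22 transport genes on the right. Circles with SE bars are from 75th-percentile scaling, diamonds from spike-in scaling, open symbols are not past an adjusted p of 0.05, and the dashed line is the median of all genes (0.068). Cfap126 is at the top with 1.07 and Bbs9 at the bottom with -0.92.

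**Figure D2:**
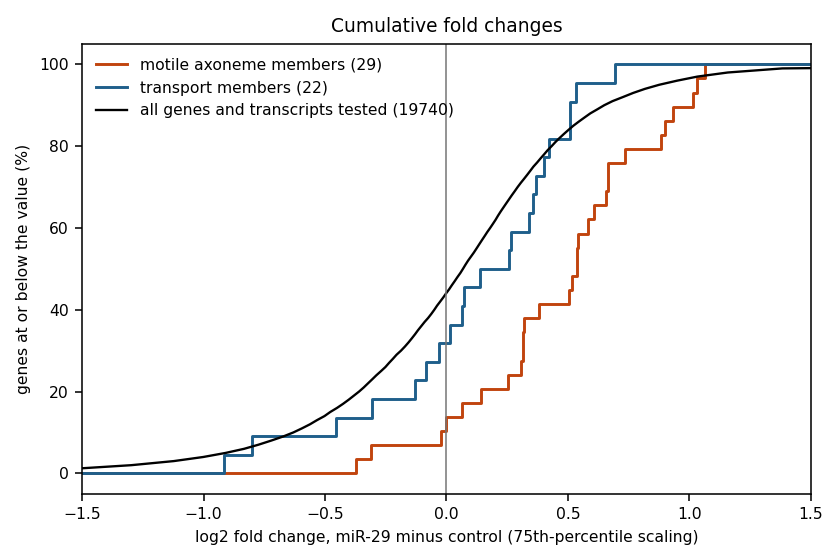
Cumulative share of genes (vertical axis, percent) at or below each log2 fold change (horizontal axis) for axoneme members, transport members and all 19740 genes tested. The median is 0.54 for the axoneme members, 0.20 for the transport members and 0.068 for all genes.

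Tektins, filament proteins inside the doublet microtubules, gave some of the clearest differences. Tekt1 had 17.6, 20.3 and 17.0% in miR-29 cells, against 9.16, 8.55 and 9.35% in control cells. The groups did not overlap, and Tekt1 rose by 1.02 in log2 units (SE 0.0837, adjusted p = 0.000238 in limma), a 2.02-fold difference. With another background correction (normexp) the change was 0.54. The other probe of Tekt1 was kept through the miR-29 group alone (3 miR-29 arrays and 0 control arrays above background). Its fold is not measured. Against the lowest signal above background of each array it was 2.47-fold higher, which is no strict lower limit, as given for Cfap206 below. Tekt2, at 61.0, 57.7 and 59.3% with miR-29 against 45.3, 36.3 and 37.9% in control cells, rose by 0.58 (SE 0.0917, adjusted p = 0.00267). Control replicate 1 was the highest of the control arrays and still lay below every miR-29 array. Tekt4 differed in sign, at -0.37 (SE 0.133, adjusted p = 0.0531), and was called lower with spike-in scaling (-0.62, adjusted p = 0.0108).

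In the Cfap family, of 19 kept 15 rose, 1 fell and 3 were not past the test, and 10 were higher and 2 lower with spike-in scaling. Cfap126, known as Flattop, a protein of the doublet lumen, had 663, 659 and 572% in miR-29 cells, against 326, 301 and 278% in control cells. All miR-29 arrays lay above all control arrays, and the gene rose by 1.07 (SE 0.0888, adjusted p = 0.000248), or 2.09-fold. Cfap53, another protein of the doublet lumen, had 14.5, 15.4 and 12.9% with miR-29 against 7.73, 7.29 and 7.35% in control cells and rose by 0.93 (SE 0.0756, adjusted p = 0.000226). The groups did not overlap there either, and with normexp the change was 0.41.

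Cfap206, an axonemal protein near the radial spokes, had 2.40, 2.85 and 2.51% in miR-29 cells, against 1.25, 1.08 and 1.51% in control cells. It was well above background on 0 control arrays, so its fold is not measured. Against the lowest signal above background of each array it was 1.46-fold higher. The adjusted p of 0.00132 in limma belongs to the fitted change, which uses control values below background. The 1.46 is no strict lower limit. A Dnah8 probe above background on 0 arrays had 2.05, 2.11 and 2.05% in control cells. The call of Cfap206 was lost with another background correction, as the closing section gives. By fitted change 3 members were called at least 2-fold higher, where 3.29% of all genes were, and 0 members that much lower, where 3.64% of all genes were. They were Cfap126, Tekt1 and Cfap206, and for Cfap206, which was kept through the miR-29 group alone, the fitted value is no measured fold.

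Further Cfap genes rose by less. Cfap44, a part of the tether of inner dynein arms, rose by 0.88 (SE 0.0704), with 11.99, 13.95 and 12.88% in miR-29 cells against 6.72, 7.07 and 7.24% in control cells. Cfap36, a protein that binds the ciliary GTPase ARL3, had 1199, 1182 and 1211% with miR-29 against 804, 728 and 734% in control cells and rose by 0.67 (SE 0.0556, adjusted p = 0.000249). For both genes the groups were well apart, and with normexp Cfap44 changed by 0.36. Cfap52, a doublet lumen protein, rose by 0.66, and Cfap70, a regulator of outer dynein arms, by 0.66, a call that slide as a block did not keep (0.52, adjusted p = 0.0677). Cfap157 and Cfap100 rose by 0.61 and 0.54, and Cfap97 by 0.52, and these 5 genes were also higher with spike-in scaling.

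Cfap genes with smaller rises were those where the scaling decided the call. Cfap300, linked to dynein assembly, rose by 0.50, Cfap410 by 0.38, Cfap69 by 0.32 and Cfap299 by 0.25, and with spike-ins they had 0.25, 0.13, 0.069 and 0.0025 and were not past the test. Cfap299 also lost its call with slide as a block (0.30, adjusted p = 0.0592) and in the authors' deposited values (0.20, adjusted p = 0.0599). Cfap298, which is needed for dynein arm assembly, had 1551, 1540 and 1444% in miR-29 cells and 1345, 1183 and 1145% in control cells. It rose by 0.31 (SE 0.0756, adjusted p = 0.0151), without overlap, and was not past the test with spike-ins (0.056) or with slide as a block (0.17, adjusted p = 0.0978).

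The Cfap gene that fell was Cfap20, a protein of the inner junction between doublet tubules. Its signal was 352, 339 and 331% in miR-29 cells, against 429, 415 and 422% in control cells, a log2 change of -0.31 (SE 0.0469, adjusted p = 0.00227). Cfap45 (-0.022), Cfap20dc (0.14) and Cfap161 (0.73, SE 0.470) were not past the test. Cfap45 was called lower with spike-ins (-0.27, adjusted p = 0.0181), and Cfap20dc higher with slide as a block (0.40, adjusted p = 0.0202). Cfap161 had 4.98, 5.17 and 4.31% with miR-29 against 2.37, 6.17 and 1.65% in control cells, so that control replicate 2 lay above every miR-29 array. It was kept through the miR-29 group alone. Leaving out 1 array moved its change between 0.33 and 1.28, and the highest adjusted p was 0.533. Leaving out control replicate 2, the array that lay against the difference, gave 1.28 (adjusted p = 0.00392).

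Axonemal dynein heavy chains (Dnah), the motors of the arms, were mostly below the detection rule. Of 9 genes on the array 4 were kept, 1 rose and 3 were not past the test. Dnah9, an outer-arm heavy chain, had 35.5, 37.3 and 33.1% in miR-29 cells and 26.9, 29.8 and 28.4% in control cells. It rose by 0.31 (SE 0.0678, adjusted p = 0.00916) with no overlap, and was not past the test with spike-ins (0.063). Its other 2 probes were not well above background on any array.

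Dnah11, also an outer-arm chain, had 4.20, 4.29 and 4.20% with miR-29, against 1.89, 3.85 and 1.60% in control cells. The groups did not overlap, but control replicate 2 was again the high control array, and the difference of 0.90 was not past the test (SE 0.319, adjusted p = 0.0523). This gene too was kept through the miR-29 group alone. Leaving out 1 array gave changes of 0.65 to 1.28 with adjusted p up to 0.133, and 1.28 (adjusted p = 0.000689) was the value without that high control array. The inner-arm chains Dnah1 (11.3, 9.53 and 9.70% with miR-29 against 9.61, 9.80 and 9.75% in control cells) and Dnah2 had fold changes of 0.062 and 0.31, with overlapping groups.

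Radial spoke genes (Rsph), whose products join the outer doublets to the central pair, had 3 of 6 members kept. Rsph1, a spoke-head protein, had 36.9, 35.3 and 36.2% in miR-29 cells and 23.6, 25.6 and 25.3% in control cells and rose by 0.54 (SE 0.0524, adjusted p = 0.000418). Rsph3a, a spoke-stalk protein, had 3306, 3304 and 3160% with miR-29 against 2493, 2205 and 2054% in control cells and rose by 0.54 (SE 0.0801, adjusted p = 0.00215). In both, every miR-29 array exceeded every control array. Rsph3a has a close copy in the mouse genome, Rsph3b, and the array signal may include it. Rsph9, also of the spoke head, had -0.0034 (SE 0.0975, adjusted p = 0.978).

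**Figure D3:**
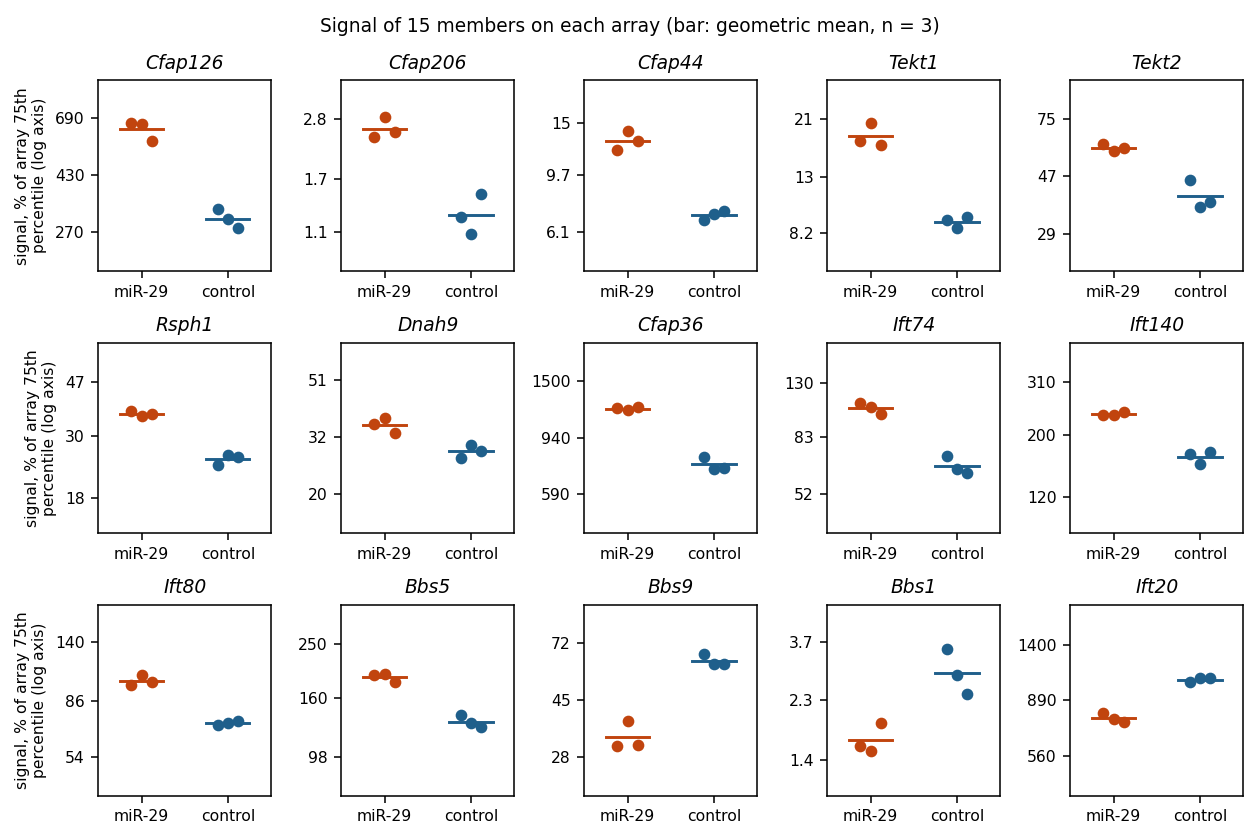
Signal of 15 members on each of the 6 arrays (vertical axis, percent of the array's 75th percentile, log scale), with miR-29 arrays on the left, control arrays on the right and bars at the geometric mean of 3 arrays. The first 12 genes lie higher on the miR-29 arrays and Bbs9, Bbs1 and Ift20 lower, with no overlap in any of the 15.

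The IFT genes were all detected. Of 14, 7 rose (50%, against 35.3% of all genes), 2 fell (against 22.7%) and 5 were not past the test, with a median of 0.20. With spike-ins 3 were higher and 5 lower (median -0.053), where 15.2% of all genes were higher and 38.5% lower. In the IFT-B complex, Ift74, part of a pair of subunits that binds tubulin, had 110.8, 107.0 and 100.8% in miR-29 cells and 71.3, 64.0 and 61.7% in control cells. It rose by 0.70 (SE 0.0730, adjusted p = 0.000555), and its partner Ift81 rose by 0.26 (SE 0.0750, adjusted p = 0.0270), which was 0.0076 with spike-ins. Ift80 had 97.7, 106 and 100.4% with miR-29 against 70.1, 71.2 and 72.5% in control cells and rose by 0.51 (SE 0.0509, adjusted p = 0.00047). Both Ift74 and Ift80 separated the groups completely, but the other probe of Ift80 did not and was not past the test (0.33, adjusted p = 0.0887).

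Ift52 and Ift88, core subunits of IFT-B, rose by 0.37 and 0.34 and were not past the test with spike-ins (0.12 and 0.091). The other probe of Ift52 gave 0.087 and was not past the test (adjusted p = 0.440). The fall in IFT-B was that of Ift20, the subunit also found at the Golgi apparatus. It had 802, 763 and 743% in miR-29 cells, against 1031, 1066 and 1067% in control cells, and fell by 0.46 (SE 0.05, adjusted p = 0.000657), with -0.40 for its other probe. Ift22 fell by 0.13 (SE 0.0443, adjusted p = 0.0447). Leaving out any 1 of the 6 arrays ended that call (adjusted p = 0.0549 to 0.133). Ift46, Ift57, Ift172 and Ift27 lay between -0.084 and 0.14 and were not past the test, and Ift27 had 1490, 1462 and 1387% with miR-29 against 1596, 1553 and 1453% in control cells. With spike-ins Ift27 (-0.34, adjusted p = 0.00315) and Ift172 (-0.28, adjusted p = 0.0107) were called lower.

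Of the IFT-A genes, which serve return transport and membrane protein entry, Ift140 had 236, 236 and 242% in miR-29 cells and 171, 157 and 174% in control cells. It rose by 0.51 (SE 0.0552, adjusted p = 0.000632), but its other 2 probes were not past the test (the lowest at -0.19), and the mean of its probes was not called (0.24, adjusted p = 0.0709). Ift43 had 1463, 1482 and 1565% with miR-29 against 1315, 1114 and 1108% in control cells. It rose by 0.36 (SE 0.0815, adjusted p = 0.0116), which was not past the test with spike-ins (0.10) or slide as a block (0.19, adjusted p = 0.0567). Ift122 had 0.062 (SE 0.0602), and -0.19 with spike-ins, where it was called lower (adjusted p = 0.0405).

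BBSome genes went both ways. Of 8 Bbs genes 3 rose (37.5%, against 35.3% of all genes), 3 fell (against 22.7%) and 2 were not past the test. With spike-ins 1 was higher and 3 lower. Bbs5, a subunit that binds membrane lipids, had 193, 195 and 183% in miR-29 cells and 139, 130 and 126% in control cells, and rose by 0.53 (SE 0.0576, adjusted p = 0.000615). Bbs4 had 143, 155 and 150% with miR-29 against 115, 109 and 110% in control cells and rose by 0.42 (SE 0.0524, adjusted p = 0.00105), and Bbs2 rose by 0.40. The groups did not overlap in these 3 genes, and Bbs4 and Bbs2 were not past the test with spike-ins (0.17 and 0.15).

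Bbs9, a further BBSome subunit, had the largest fall of any member called, with 30.7, 37.7 and 31.1% in miR-29 cells and 65.7, 60.6 and 60.8% in control cells. It fell by 0.92 (SE 0.0932, adjusted p = 0.000498), a ratio of 0.530. Bbs1 had 1.575, 1.503 and 1.893% with miR-29 against 3.49, 2.82 and 2.41% in control cells, and fell by 0.80 (SE 0.157, adjusted p = 0.00618). It was well above background on 1 of 3 miR-29 arrays, so that it was kept through the control group alone, and with normexp it was not past the test (-0.16, adjusted p = 0.247). Bbs12, a chaperonin-like protein of BBSome assembly, fell by 0.30 (SE 0.0669, adjusted p = 0.00974), Bbs10, another such protein, had 0.070 and Bbs7 0.27 (SE 0.126, adjusted p = 0.114). Bbs7 passed with slide as a block (0.53, adjusted p = 0.0101).

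Probes of a member mostly gave the same sign. Of 18 members with 2 or more kept probes, 15 had probes of 1 sign, and in 0 members were probes called in both directions. The same share over all genes was not worked out, so the count is a description. The exceptions in sign were Ift140, Ift172 and Dnah2. Among the 74 kept member probes 40 were called higher and 7 lower in a fit over all 26427 kept probes, where 35.3% were called higher and 22.7% lower (58% in all). Probe ranges were wide for Rsph3a (0.15 to 0.54), Cfap20dc (0.14 to 0.56) and Cfap410 (0.10 to 0.38). Cfap20dc, not past the test by its representative probe, was called higher by its other 2 probes. In the same fit Bbs7 was called higher by its other probe (0.36, adjusted p = 0.0121). The other kept probe of Dnah1 gave 0.37 without overlap and was not past the test (adjusted p = 0.101).

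**Figure D4:**
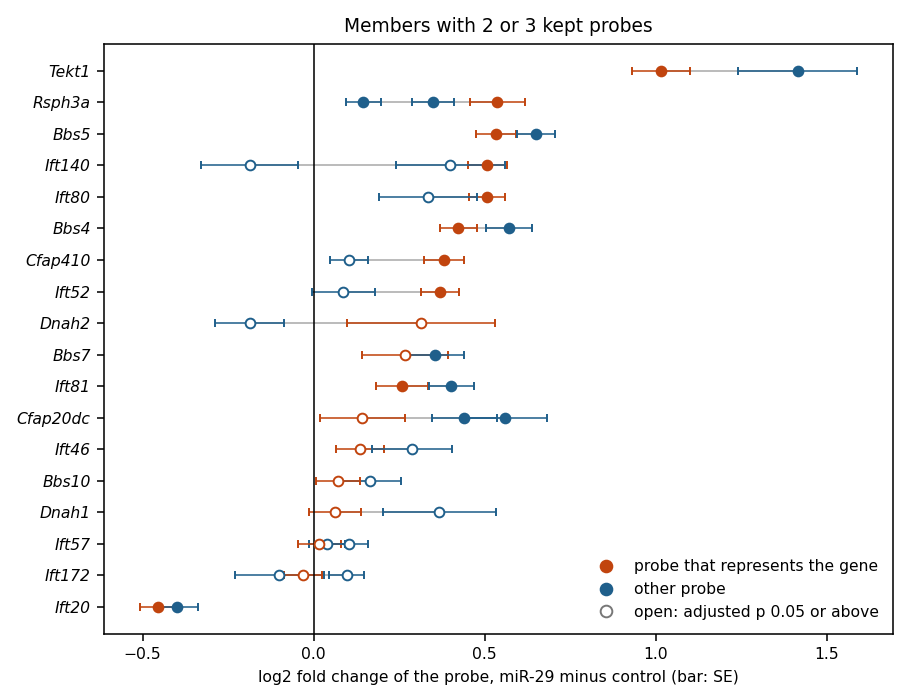
Log2 fold change of each kept probe (horizontal axis, SE bars) for the 18 members with 2 or 3 kept probes, with the probe that represents the gene in orange, other probes in blue and probes not past an adjusted p of 0.05 open. Both probes of Tekt1 lie at or above 1.02 and both probes of Ift20 lie below 0.

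The detection rule left out 29 probes, of which 26 were above background on 0 arrays, and 14 genes. The left-out genes were Cfap57, Cfap58, Cfap61, Cfap65, Cfap97d1, Cfap221, Dnah5, Dnah6, Dnah8, Dnah10, Dnah17, Rsph4a, Rsph6a and Rsph14. Just outside the rule, the spoke-head gene Rsph4a was above background on 2 of 3 miR-29 arrays and 0 control arrays, and Dnah5 on 0 miR-29 arrays and 1 control array. Just inside it, 4 genes passed through 1 group only: Cfap206 (3 miR-29 and 0 control arrays), Cfap161 (3 and 1), Dnah11 (3 and 2) and Bbs1 (1 and 3). Of the 47 members above background on all 6 arrays 29 were called higher and 5 lower, where 35.2% of all such genes were called higher and 23.3% lower.

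With slide as a block, a fit whose differences equal those against control replicate 1 alone, 28 members were called higher and 5 lower, where 5663 and 3605 of all 19740 genes were. The median SD between arrays of a group was 0.0568 (miR-29) and 0.0787 (control) on the log2 scale, and the largest was 0.982, that of Cfap161 in control cells.

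Other parts of motile cilia, listed under symbols outside the rule, went both ways. For this list and those that follow, 35.3% of all genes were called higher and 22.7% lower. With spike-ins the shares of all genes were 15.2% and 38.5%, and no list was tested against them. Of 34 other axoneme genes tested 15 were higher, 4 lower and 15 not past the test (median 0.23), and with spike-ins 8 were higher and 12 lower (median -0.025). The central-pair gene Spag16 rose by 1.59 (SE 0.174) and was kept through the miR-29 group alone (3 miR-29 and 2 control arrays above background). Ropn1l, a radial spoke protein, rose by 1.13, the inner-arm light intermediate chain gene Dnali1 by 1.10 and Lrguk by 1.01 (SE 0.0665). Lrguk was dim, at 6.21, 5.64 and 5.77% with miR-29 against 2.89, 3.08 and 2.74% in control cells. Lower under both scalings were Spef1, a central-pair protein gene, which fell by 0.88 (SE 0.0777), and Dnal1, an outer-arm light chain gene, which fell by 0.65 (SE 0.158). Dnal1 had 40.4, 59.3 and 55.9% in control cells against 34.0, 34.4 and 29.5% with miR-29. Dnaic1 had 44.3, 65.7 and 62.0% in control cells against 44.8, 43.0 and 43.4% with miR-29. In both, control replicate 1, on the slide of the miR-29 arrays, lay nearest to them. Of 13 assembly factors of axonemal dyneins 6 were higher and 3 lower (median 0.26, and 0.0072 with spike-ins). Dnaaf4 and Spag1 rose by 0.97 and 0.66, and Dnaaf5 fell by 0.56. Lrrc6 was also called higher (adjusted p = 0.000863) and was well above background on 0 control arrays.

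Of 12 genes listed as transcription and cell cycle regulators of multiciliated cells 7 were higher and 1 lower (median 0.21), and 3 and 3 with spike-ins. The list took in RFX genes as a family, and the part of each in cilium formation was not checked. E2f5, a factor for centriole amplification, rose by 0.99 (SE 0.0921), Ccno, which acts in the same step, by 0.60 and Ulk4 by 0.55, where the other probe of Ulk4 was not past the test (0.29, adjusted p = 0.0679). Rfx5, of the RFX family, rose by 0.51 and was not past the test with spike-ins. Rfx2, the regulator called lower and a known activator of motile cilium genes, fell by 0.41 (SE 0.0659, adjusted p = 0.00280), and was lower with spike-ins too (-0.66). Foxj1, the main activator of motile cilium genes, rose by 0.19 (SE 0.0557, adjusted p = 0.0273), which was -0.059 and not past the test with spike-ins.

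Transport and primary cilium genes outside the rule were also mixed. Shares called higher were 50% for other IFT genes, 53.8% for motor subunits, 33.3% for BBSome-related genes and 42.3% for transition zone genes. The share of all genes was 35.3%. Of 10 other IFT genes 5 were higher and 2 lower, and 3 and 3 with spike-ins. Cluap1 rose by 0.55 and Hspb11 by 0.45. Ttc30a1 rose by 0.50, but its other probe gave -0.047 (adjusted p = 0.603) and it shares sequence with a close copy, Ttc30a2, so its value is uncertain. The related gene Ttc30b fell by 0.31. Of 13 motor subunits 7 were higher and 3 lower, and 1 and 5 with spike-ins. Dync2h1, the heavy chain of the retrograde motor, rose by 0.48 (0.29 to 1.21 with its other probes) and Dync2li1 and Tctex1d2 by 0.41 and 0.24, while the kinesin gene Kif3c fell by 0.25.

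Of 6 other BBSome-related genes 2 were higher and 1 lower, and 0 and 3 with spike-ins. Arl6, the GTPase that recruits the BBSome, rose by 0.22, and Rab3ip by 0.33, where the other probe gave -0.033 (adjusted p = 0.691). Trim32 fell by 0.31, with an other probe not past the test (-0.39, adjusted p = 0.147). Of 26 transition zone and ciliopathy genes, whose products gate the cilium base, 11 were higher and 3 lower (median 0.13), and 5 and 9 with spike-ins. Tmem17, Ofd1 and Ahi1 rose by 0.76, 0.60 and 0.59, and Tctn2 fell by 0.56.

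Among 20 ciliary membrane and hedgehog pathway genes 10 were higher and 8 lower, and 4 and 8 with spike-ins. The hedgehog receptor gene Ptch1 rose by 1.10 (SE 0.046, adjusted p = 4.19e-05). Its signal was dim, at 7.40, 7.48 and 7.14% with miR-29 against 3.35, 3.45 and 3.49% in control cells. No normexp value is given for Ptch1. Evc2, a part of the pathway at the cilium base, rose by 0.69. Pkd1, the polycystin receptor gene, fell by 1.55 (SE 0.0618, adjusted p = 3.97e-05), and Gpr161, a ciliary receptor that restrains hedgehog signalling, by 0.95 (SE 0.265, adjusted p = 0.0232). Gpr161 had 28.2, 56.8 and 49.3% in control cells against 23.4, 23.7 and 19.6% with miR-29. Control replicate 1, on the slide of the miR-29 arrays, lay nearest to them.

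**Figure D5:**
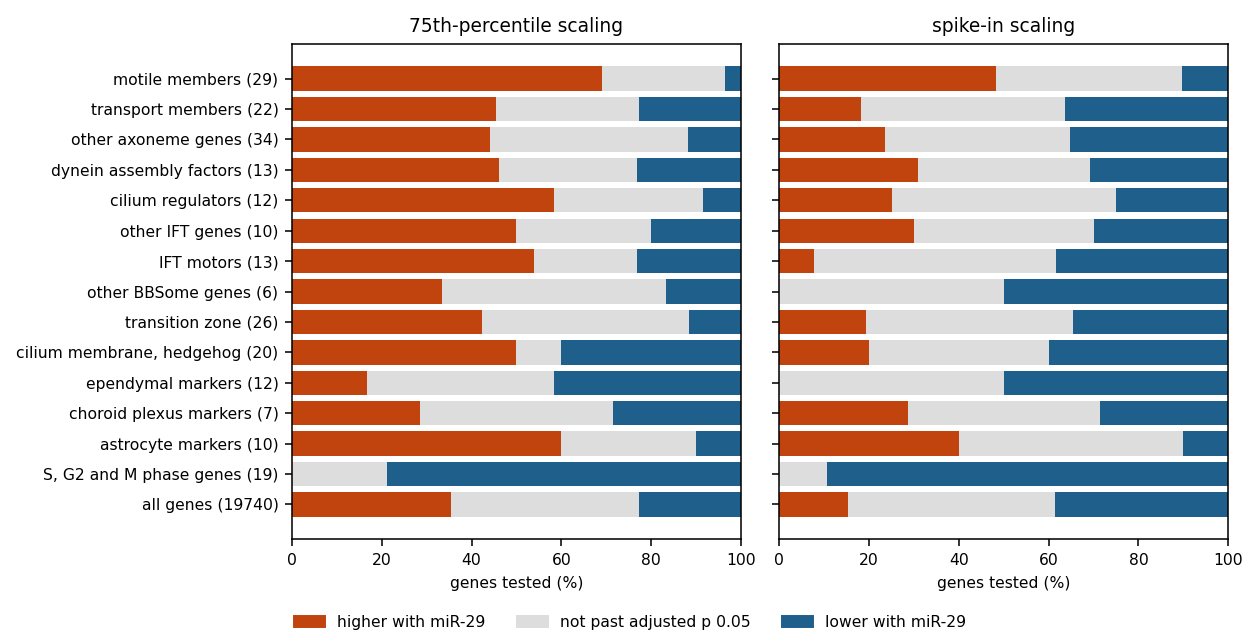
Share of tested genes (horizontal axis, percent) called higher with miR-29, not past an adjusted p of 0.05, or called lower, for both member sets, 12 lists of related genes and all 19740 genes, with 75th-percentile scaling on the left and spike-in scaling on the right. Numbers of genes tested stand in brackets. The axoneme members (Cfap, Dnah, Rsph and Tekt) have 20 of 29 higher on the left and 14 of 29 on the right, against 35.3% and 15.2% of all genes.

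Markers of ependymal cells, which carry motile cilia, were more often lower than higher, and in such bulk cultures fewer cells of a type and less RNA per cell cannot be told apart. Of 12 ependymal markers tested 2 were higher, 5 lower and 5 not past the test, with a median of -0.18 (-0.43 with spike-ins, where 0 were higher and 6 lower). Their summed signal was 3280 to 3550% of the 75th percentile in miR-29 cells, against 4550 to 4930% in control cells. Most of that sum was Tm4sf1, and without it the other 11 markers summed to 399 to 445% in miR-29 cells and 455 to 489% in control cells. Hdc fell by 1.17 (SE 0.1), Rarres2 by 0.57, Tm4sf1 by 0.48 and Enkur, also an axoneme gene, by 0.40. Hdc was dim, at 2.03, 2.64 and 2.33% with miR-29 against 5.06, 5.28 and 5.33% in control cells. Meig1 and Foxj1 rose by 0.34 and 0.19 and were not past the test with spike-ins (0.090 and -0.059). The ependymal marker Tmem212 was below the detection rule. Several of these markers, Foxj1, Enkur, Meig1, Ak7 and Dynlrb2, are also in the cilium lists above.

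Of 7 choroid plexus markers 2 were higher and 2 lower, with a summed signal of 1520 to 1610% in miR-29 cells and 1670 to 1760% in control cells. Most of that sum was Aqp1, and without it the order turned, with 397 to 407% in miR-29 cells and 261 to 293% in control cells. Clic6 and Otx2 rose by 0.66 and 0.60, Aqp1 fell by 0.33, and Folr1 fell by 0.40 with 1 probe and had -0.015 with the other (adjusted p = 0.963). Ttr and Kl were below the detection rule. All 10 astrocyte markers passed the detection rule, and 6 were higher and 1 lower (4 and 1 with spike-ins). Slc1a3, Fabp7, Aldh1l1 and Gfap rose by 1.68, 1.31, 0.74 and 0.62. Gja1 fell by 0.34 (adjusted p = 0.0147 in limma) and was lower with spike-ins too (-0.59). Slc1a2, S100b and Aqp4 were not past the test. The summed signal of the 10 markers was 9690 to 10700% in miR-29 cells and 6750 to 7070% in control cells.

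Cell cycle genes, which act in DNA replication and mitosis, were mostly lower. Of 19 tested 15 were lower and 0 higher (4 not past the test), with a median of -0.76, and Ccna2, Cdc6, Aurkb and Ccne2 fell by 1.86, 1.79, 1.77 and 1.54. Their summed signal was 5640 to 5930% in miR-29 cells, against 6730 to 7490% in control cells. The part of these cell cycle genes, and of the ependymal, choroid plexus and astrocyte markers, in the results on cilium genes was not tested.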

How the data were processed

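RNA of 3 miR-29-transfected and 3 control-transfected astrocyte extracts was measured on 6 arrays. Agilent Feature Extraction 10.7.3.1 read each spot's intensity, per the file headers (10.7 in the submitters' processing notes) and subtracted background. In the authors' own deposited values each intensity is multiplied by 1 constant per array (2.63 to 3.43), and the sources used here do not give the rule behind it. The median of that table was 149.3, 155.4 and 148.8 for miR-29 replicates 1 to 3, against 146.3, 164.8 and 162.2 for control replicates 1 to 3. There were 0 columns of other samples.

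Outlier and control spots were left out, signals under 1 were set to 1, log2 was taken, and each array's 75th percentile was subtracted. Spots of a probe were averaged (43379 spots, 41174 probes), and 26427 probes passed the detection rule. Of all probes 26933 matched 1 symbol by unversioned RefSeq accession (GRCm38.p6) and 14241 none. A gene was its kept probe with the highest mean, and an unmatched accession stood for itself. The 2 groups were compared by limma 3.58.1 (lmFit, then eBayes, two-sided) under R 4.3.3. The procedure was tested on simulated data.

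The members and gene lists were chosen with earlier results of these data known. Every kept member is named. Values per array follow a rule: in each symbol family the 3 called members with the largest change and no overlap, and in Ift, Bbs, Dnah and Cfap the 2 with the largest mean. Lists give up to 4 called genes with the largest change. Cfap20, Cfap44, Cfap161, Dnah11, Ift20, Tekt4, Gpr161, Dnal1, Dnaic1, Ptch1, Lrguk, Hdc and a Dnah8 probe were given per array after their values were seen. Further list genes (Foxj1, Rfx2, Spef1, Dnal1, Dnaic1, Meig1, Gja1, Slc1a2, S100b and Aqp4) were also named after their values were seen. Marker sums without the brightest marker were added after seeing the data. Normexp used spot and background medians with an offset of 50, in place of the mean signals first planned.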

Additional observations from a re-analysis of the deposited data

How the results depend on the processing

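Of the 36 member calls, 18 kept their direction and stayed past the threshold in all 17 alternatives that gave a value, and 26 did so when spike-in scaling was set aside. The scaling mattered most. With spike-ins 18 members were higher and 11 lower, and over all genes 3010 were higher and 7607 lower. The same scaling turned the sign of 6 members not past the test: Ift122 (-0.19), Ift46 (-0.11), Ift57 (-0.23), Bbs10 (-0.18), Cfap20dc (-0.11) and Dnah1 (-0.19). Signs of uncalled members also turned with quantile normalization (Ift122 at -0.034 and Ift57 at -0.043), normexp (Ift172 at 0.020), the deposited table (Ift57 at -0.037) and slide as a block (Ift122 at -0.033). With 1 array left out, Ift57 ranged from -0.032 to 0.047, Rsph9 from -0.073 to 0.077, Dnah1 from -0.015 to 0.11, Ift172 from -0.058 to 0.0014 and Cfap45 from -0.076 to 0.053. Leaving out 1 array gave 27 to 31 members higher and 5 to 6 lower. With normexp 4 dim members lost their call, Bbs1 (-0.16, adjusted p = 0.247), Cfap206 (0.11, adjusted p = 0.265), Cfap157 (0.23, adjusted p = 0.123) and Cfap299 (0.058, adjusted p = 0.625). Among members that kept their call, normexp moved 8 by over 1.5 times: Cfap300 (0.29), Cfap44 (0.36), Cfap53 (0.41), Cfap70 (0.26), Dnah9 (0.20), Ift88 (0.22), Rsph1 (0.35) and Tekt1 (0.54). So did slide as a block for Cfap157 (0.36) and Ift81 (0.40), and the mean of probes for Rsph3a (0.34), Ift52 (0.23) and Cfap410 (0.24). The cause of these changes was not tested.

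Deviations of same-numbered arrays correlated at 0.13, 0.094 and 0.25. Without the values for arrays of different numbers, these do not decide whether the replicate numbers pair the arrays. With the replicate block 29 members were higher and 5 lower (34 in all, against 36), and over all genes 11524 were called. Fold changes of members near background are limited by the signal, and the number of arrays limits precision.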
